A study of Mus musculus with 6 samples.

Results

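Tarm1 and 9 other myeloid immunoglobulin-like receptors and adaptors were examined in RAW264.7 cells, a mouse macrophage line, after exposure to SKI-II, a small molecule first developed as a sphingosine kinase inhibitor. The set held Tarm1, Lilrb4a, Pirb, Trem1, Trem2, Treml2, Cd300lf and Sirpa, which encode receptors, and Tyrobp and Fcer1g, which encode signaling adaptors. Tarm1 was chosen by its rise from near 0 counts in these same libraries, so its change is described here without a test, and the others were taken as related receptors and their adaptors. Of the 10 genes, 9 had a row in the table of 49315 genes, and 8 of these were among the 12274 genes that passed the filter on low counts. Lilrb4a had no row of its own, and Trem1 fell below the filter. Tarm1 passed only through its counts in the SKI-II libraries.

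Poly(A) RNA was sequenced in 3 libraries from wild-type cells given 4 μg/mL of SKI-II and in 3 libraries from wild-type cells given the DMSO vehicle, all collected after 24 h. All 6 libraries came from a single transformed line. The study's methods refer to its qPCR assay, run on 3 biological replicates per condition, for treatment and extraction. They state in general that experiments were independently repeated, but neither they nor the labels say of these libraries whether they were separate cultures, so the p-values measure the spread between these libraries, which may be technical. The totals lay between 12495957 and 20050677 counts. Replicate 3 of both groups lay apart from the others on the second dimension of a scaling plot, which held 12.41% of the variance against 72.23% for the dimension that separated the treatments. Among macrophage markers, all 10 were detected and tested, with Cd68 at 16600 ± 1532 normalized counts under vehicle and 14672 ± 1824 after treatment (SD, n = 3). Of these 10, 2 were called higher and 4 lower (20% and 40%, against 18.4% and 19.7% of all tested genes). Fcgr1 and Cd14 had log2 fold changes of 2.17 and 1.41, while Adgre1 and Itgam, which encode F4/80 and CD11b, had −0.92 and −0.93 (edgeR adjusted p = 0.00451 and 0.00781). Of 12 neutrophil markers, Ly6g, Ngp, Ltf and Retnlg were at 0 in every library, and the summed level of the list ran from 158 to 210 normalized counts under vehicle and from 122 to 205 after treatment. Of 5 B lineage markers, Ms4a1 and Ebf1 were at 0 throughout, Cd79b and Pax5 had 0 or 1 count in each library, and Cd79a had 2, 0 and 3 counts under vehicle, against 4, 5 and 4 after treatment. Of 5 T and NK markers, 4 were at 0 throughout and Cd3e had 0 or 1 count.

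Most of these receptors sit on myeloid cells in activating and inhibitory pairs. Activating receptors such as TARM1, TREM1 and TREM2 have short tails and signal through a partner, either DAP12 (encoded by Tyrobp) or the Fc receptor gamma chain (encoded by Fcer1g), whose ITAM motifs recruit the kinase SYK once phosphorylated by SRC-family kinases. Inhibitory receptors such as PIR-B, LILRB4, CD300LF and SIRPα carry ITIM motifs of their own, which recruit the phosphatases SHP-1 and SHP-2.

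Tarm1 and Pirb lie on the same arm of mouse chromosome 7 in the leukocyte receptor complex, 208785 bases apart. Promoter sequence was available for 6 of the 10 genes in the RefSeq table (GRCm38.p6), and 4 are shown because they contrast the receptors that rose with the most abundant TREM receptor, which did not pass the test. Each is written 5′ to 3′ on the strand of the gene, covers up to 250 bases before the annotated start without exon bases, and has in capitals the motifs searched. These were the antioxidant response element of Nrf2 (TGACNNNGC), AP-1 (TGANTCA), C/EBP (TTGCNNAA), the C/EBP-ATF composite (TGATGNAA), PU.1 (GAGGAAG, whose letters include the ETS core GGAA), NF-kB, the CLEAR type of E-box (CACGTG) and the TATA box (TATAAA), each on both strands. The sequences are from chr7:3502625-3502874 (minus strand, Tarm1), chr7:3720392-3720632 (minus strand, Pirb), chr11:115133993-115134242 (minus strand, Cd300lf) and chr17:48346151-48346400 (plus strand, Trem2).
Tarm1: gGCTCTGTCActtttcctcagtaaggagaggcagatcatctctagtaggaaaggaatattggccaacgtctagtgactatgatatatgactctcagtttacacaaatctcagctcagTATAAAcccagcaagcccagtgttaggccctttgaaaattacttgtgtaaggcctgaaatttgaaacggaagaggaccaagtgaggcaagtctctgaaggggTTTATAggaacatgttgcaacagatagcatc
Pirb: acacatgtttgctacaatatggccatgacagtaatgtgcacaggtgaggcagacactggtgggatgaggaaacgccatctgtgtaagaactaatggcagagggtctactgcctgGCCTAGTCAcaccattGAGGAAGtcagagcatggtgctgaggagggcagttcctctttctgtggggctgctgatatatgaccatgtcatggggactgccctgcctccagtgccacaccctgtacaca
Cd300lf: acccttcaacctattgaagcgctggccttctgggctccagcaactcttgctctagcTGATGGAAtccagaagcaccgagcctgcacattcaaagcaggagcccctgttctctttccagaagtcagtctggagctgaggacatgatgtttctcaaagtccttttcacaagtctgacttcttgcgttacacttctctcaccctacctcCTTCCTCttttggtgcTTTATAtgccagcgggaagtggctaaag
Trem2: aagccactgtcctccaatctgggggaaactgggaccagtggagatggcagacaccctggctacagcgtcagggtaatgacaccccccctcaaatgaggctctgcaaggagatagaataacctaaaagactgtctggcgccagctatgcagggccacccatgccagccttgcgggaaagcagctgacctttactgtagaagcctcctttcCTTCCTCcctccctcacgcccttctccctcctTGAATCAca
The windows of Tarm1 and Pirb each held 1 match to the antioxidant response element on the opposite strand, ending 241 and 128 bases before the start, and 10.2% of 32851 promoter windows held that motif. A TATA box on the opposite strand stood 26 bases before the start of Tarm1 and 23 bases before that of Cd300lf, and Tarm1 had another on the transcribed strand at 128 bases. TATA boxes were in 12.4% of all windows. PU.1 letters stood in the windows of Pirb, Cd300lf and Trem2 but not of Tarm1, against 10.6% of all windows. The AP-1 match of Trem2, 3 bases before its start, was of a kind found in 6.75% of windows, and the C/EBP-ATF match of Cd300lf of a kind found in 3.45%. The windows of Trem1 and Fcer1g held none of these 8 motifs. No window of the 6 held NF-kB, C/EBP or E-box letters, which were in 0.356%, 9.56% and 6.02% of all windows.

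SKI-II-treated macrophages carried Tarm1 transcripts that DMSO-treated cells almost lacked. Pirb, Cd300lf, Treml2 and Sirpa were also higher, by 3.88-, 2.71-, 2.04- and 1.38-fold in the mean normalized count. The adaptors Tyrobp and Fcer1g and the receptor Trem2 did not pass the test. None of the other 7 tested genes was lower in edgeR's quasi-likelihood test, 0 at an unadjusted p under 0.05 and 0 with DESeq2 or limma-voom. Leaving out Tarm1, whose rise fixed its choice, 4 of these 7 were called higher at an adjusted p under 0.05, against a background of 18.4% of all tested genes higher and 19.7% lower. Of the 4, 3 also had a log2 fold change above 1, a mark that 8.28% of tested genes passed upward and 7.44% passed downward. The SKI-II values lay wholly above the DMSO values for the same 4 genes, which held for 24.8% of all tested genes, while 25.5% lay wholly below. In bulk RNA, a change in the share of cells that express a gene and a change in RNA per cell cannot be told apart.

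**Figure D1:**
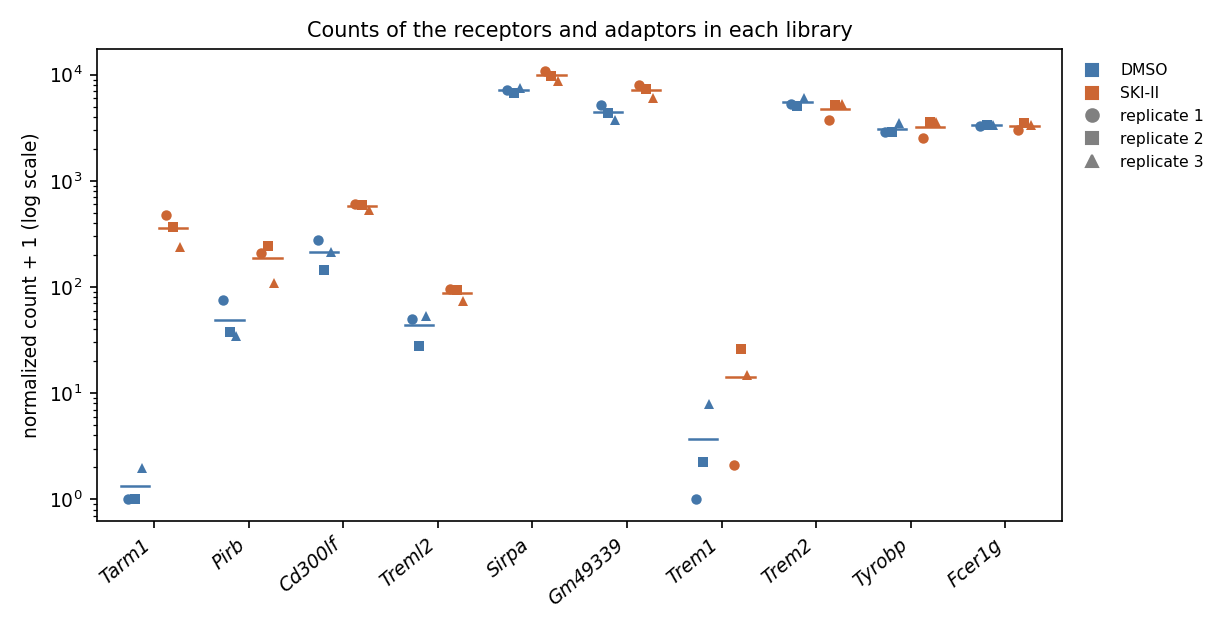
Normalized counts plus 1 on a log axis for 9 of the genes and for the row Gm49339, which overlaps Lilrb4a, in each DMSO (blue) and SKI-II (orange) library. Symbols give the replicate number and bars the group mean. Tarm1 goes from 0, 0 and 1 counts to between 239 and 474 normalized counts, whereas the groups of Trem2, Tyrobp, Fcer1g and Trem1 overlap.

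Tarm1 encodes the T cell-interacting activating receptor on myeloid cells, which pairs with the Fc receptor gamma chain. The gene lies at chr7:3486500-3502624 on the minus strand (GRCm38, GENCODE M21). In replicates 1 to 3 it had 0, 0 and 1 counts under vehicle, against 424, 382 and 293 after treatment, and values of other genes are given in the same order. The groups were far apart, and among treated libraries replicate 1 was the highest and replicate 3 the lowest after scaling, at 474 and 239 normalized counts. A count of 0 allows up to 3 counts, or 3.79 normalized counts in the shallowest DMSO library. Corrected for library size, the summed counts were 982 times higher in SKI-II, with an exact 95% (Clopper-Pearson) interval of 176 to 38810 that covers counting error only and rests on 1 DMSO count. With 1 library left out the ratio was 625 without DMSO replicate 1 and at most 1175, and without DMSO replicate 3, when no DMSO count was left, Tarm1 was at least 210.5-fold higher, taking 3 counts over the group. Among 31161 genes with at most 1 count over the DMSO libraries, 8 had 100 or more SKI-II counts, and none of the others had as many as Tarm1. Because Tarm1 was chosen by this rise, that place describes the choice and lends it no support. In SKI-II its mean of 359 ± 118 normalized counts (SD, n = 3) was above that of 42.85% of tested genes, so an almost silent gene reached an ordinary level.

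The genes around Tarm1 were called in either direction or not at all. Of the 10 nearest protein-coding genes, 5 on either side, 7 were tested, and 3 were called higher and 1 lower (42.9% and 14.3%, against 18.4% and 19.7% of all tested genes). Cacng8, a calcium channel subunit gene 70852 bases from Tarm1, had 130, 72 and 31 counts under vehicle, against 418, 400 and 151 after treatment, a log2 fold change of 1.97 (SE 0.53, edgeR adjusted p = 0.0160). Its groups overlapped after scaling, with SKI-II replicate 3 below DMSO replicate 1. Myadm and Tfpt had log2 fold changes of 0.51 and 0.52, and Prpf31, a splicing factor gene, one of −0.46. All of these calls depended on single libraries: Cacng8 missed the threshold without SKI-II replicate 1 or 2 (edgeR adjusted p up to 0.0806), Tfpt without DMSO replicate 1 or 2, Myadm in 3 and Prpf31 in 4 of 6 fits with a library left out. Oscar, the osteoclast-associated receptor gene that is the next annotated receptor on the other side, held 3 to 8 counts in every library and was not tested. A provisional transcript model, Gm44165, overlaps Tarm1 on its strand without sharing exon bases and held 21 counts over the 6 libraries.

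Pirb encodes PIR-B, an inhibitory receptor for MHC class I and for angiopoietin-like proteins, at chr7:3711409-3720391 on the minus strand. It had 76, 29 and 34 counts under vehicle, against 187, 253 and 133 after treatment. All treated libraries were above all controls, the nearest being SKI-II replicate 3 at 108 and DMSO replicate 1 at 73.8 normalized counts. The mean rose from 48.0 ± 22.4 to 186 ± 69.4 normalized counts (SD, n = 3), a log2 fold change of 1.94 (SE 0.38, edgeR adjusted p = 0.00333), and it was called with any single library left out. The activating paired receptors share much of the PIR-B sequence, so reads could be split among them. Of those with rows, Pira2 had 1, 0 and 3 counts under vehicle, against 3, 11 and 2 after treatment. Lilra6 had 4, 1 and 6 counts against 12, 23 and 9, without overlap after scaling. Neither passed the filter, so neither was tested. Summed counts of each were 3.57 times higher in SKI-II (exact 95% intervals 1.15 to 14.7 and 1.82 to 7.67, counting error only), against 3.68 times for Pirb. Whether Pirb shared reads with them was not tested. Pira1, Pira6, Pira7, Pira12 and Pira13 were not analysed here. In the wider list of LILR, PIR and related receptors, most of them in the leukocyte receptor complex, 3 genes were tested beside Tarm1. Of these 3, Pirb was called higher and none lower (0 also at an unadjusted p under 0.05, and with DESeq2 or limma-voom), a number too small to set against the 18.4% and 19.7% of all tested genes. Fcgrt, the neonatal Fc receptor gene, which lies elsewhere on chromosome 7, was at 0.70 (edgeR adjusted p = 0.0865) and passed without DMSO replicate 3 (adjusted p = 0.0125), without replicate 3 of both groups (0.0228) or with no filter on low counts (0.0140). Lair1, a collagen receptor gene, was at −0.46 (edgeR adjusted p = 0.201).

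Lilrb4a encodes LILRB4, an inhibitory receptor also called gp49B, and is annotated at chr10:51490956-51496611 on the plus strand. Its identifier is not among the rows used, and no value is given for it. The row Gm49339 spans chr10:51480612-51496613 on the same strand, and 1846 of its 1990 exon bases are also exon bases of Lilrb4a, so it is shown in its own right, chosen after its values were seen. Gm49339 had 5302, 3472 and 3766 counts under vehicle, against 7095, 7740 and 7428 after treatment. Scaled values lay between 3729 and 5150 in DMSO and between 6052 and 7939 in SKI-II, with no overlap, and the log2 fold change was 0.69 (SE 0.16, edgeR adjusted p = 0.00747). Which of the genes annotated there gave these reads cannot be told from the table.

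The TREM genes lie side by side on chromosome 17, from 48232768 to 48367176. Trem2 and Treml2 are neighbors there with B430306N03Rik between them, Trem2 being abundant and Treml2 scarce. TREM2 is a lipid-sensing receptor that signals through DAP12 and is known from lipid-laden macrophages, microglia and osteoclasts. Trem2 had 5454, 4021 and 6127 counts under vehicle, against 3324, 5396 and 6546 after treatment. SKI-II replicate 1 was the lowest at 3719 normalized counts, and the other treated libraries, at 5149 and 5333, lay within the DMSO range of 5081 to 6067. The log2 fold change was −0.21 with a 95% interval of −0.57 to 0.14 (edgeR adjusted p = 0.325).

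Treml2 encodes a TREM-like receptor found on macrophages, neutrophils and B cells. It was at 50, 21 and 53 counts under vehicle, against 84, 97 and 90 after treatment. The groups did not overlap, with 26.5 to 52.5 normalized counts against 73.3 to 94.0. Its log2 fold change of 1.01 (SE 0.31) passed the test at an edgeR adjusted p of 0.0259, but the call was lost without DMSO replicate 2 (adjusted p = 0.0975), SKI-II replicate 1 (0.0796) or SKI-II replicate 2 (0.0821). Without replicate 3 of both groups the log2 fold change was 1.29 (adjusted p = 0.0162).

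Trem1 encodes an amplifier of inflammatory responses that signals through DAP12. It had 0, 1 and 7 counts under vehicle, against 1, 26 and 17 after treatment, so SKI-II replicate 1 fell among the controls and the groups overlapped. Summed counts were 4.91 times higher in SKI-II (exact 95% interval 2.29 to 12.1, counting error only), and 25.3 times without DMSO replicate 3, which held most of the control counts. With no filter on low counts edgeR gave a log2 fold change of 2.22 (adjusted p = 0.00972) and DESeq2 one of 2.27 (adjusted p = 0.139). Trem1 passed the filter and the edgeR test without DMSO replicate 3 (log2 fold change 4.33, adjusted p = 0.0382), and missed the threshold without SKI-II replicate 1 (adjusted p = 0.0511) and without DMSO replicate 1 or 2 (0.236 and 0.260). No direction is drawn at this depth.

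Among the tested genes of the TREM family, 3 of 6 were called higher and none lower (0 also at an unadjusted p under 0.05, and with DESeq2 or limma-voom), with a median log2 fold change of 0.58 against 0.0038 over all tested genes, of which 18.4% were called higher. Treml4, which encodes a receptor of splenic macrophages that binds dead cells, had 27, 13 and 30 counts under vehicle, against 179, 257 and 212 after treatment, a log2 fold change of 3.07 (SE 0.28, edgeR adjusted p = 4.38e-05). B430306N03Rik, the annotated gene that RefSeq also calls Treml6, had 19, 9 and 11 counts against 91, 123 and 85, a log2 fold change of 2.80 (SE 0.36, edgeR adjusted p = 0.000279). Both stayed called with any library left out, and neither pair of groups overlapped. Trem3 and Treml1 had log2 fold changes of 0.15 and −0.36 and did not pass. The count of calls was 2 in the 3 fits named above that lost Treml2.

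Cd300lf encodes CD300LF, an inhibitory receptor of phospholipids and ceramide on dying cells, at chr11:115116214-115133992. It had 287, 114 and 214 counts under vehicle, against 535, 613 and 656 after treatment. Its treated libraries were close together, at 534 to 599 normalized counts, and the controls were spread from 144 to 279. The mean rose from 212 ± 67.4 to 573 ± 33.8 normalized counts (SD, n = 3), a log2 fold change of 1.43 (SE 0.22, edgeR adjusted p = 0.000816). The call held with any single library left out. Rab37, on the opposite strand over Cd300lf, had only 7 counts over all libraries.

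Cd300lf did not rise alone in its cluster. Of 8 tested CD300 genes, 6, Cd300lf among them, were called higher and 1 lower (75% and 12.5%, against 18.4% and 19.7% of all tested genes), with a median log2 fold change of 0.93. Cd300a, an inhibitory receptor gene at the other end of the same cluster, had 1029, 674 and 865 counts under vehicle, against 3266, 4287 and 3241 after treatment, a log2 fold change of 1.94 (SE 0.17, edgeR adjusted p = 3.45e-05). Cd300e, whose product is an activating partner of DAP12, had 25, 9 and 24 counts against 28, 103 and 141, and SKI-II replicate 1 lay close to the controls although the groups did not overlap after scaling (log2 fold change 2.02, SE 0.50, edgeR adjusted p = 0.00979). Cd300lg, expressed by endothelium in other tissues and placed apart from the cluster on chromosome 11, was the 1 called lower, with 91, 89 and 140 counts against 17, 53 and 35 (log2 fold change −1.78, edgeR adjusted p = 0.00387). Cd300c, inside the cluster, was too scarce to be tested. It had 8, 8 and 3 counts against 0, 2 and 0, without overlap after scaling. Its summed counts in SKI-II were 0.094 times those in DMSO (exact 95% interval 0.0106 to 0.390, counting error only). With 1 library left out the count called higher ran from 4 to 6, the losses being Cd300c2 and Cd300lb.

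**Figure D2:**
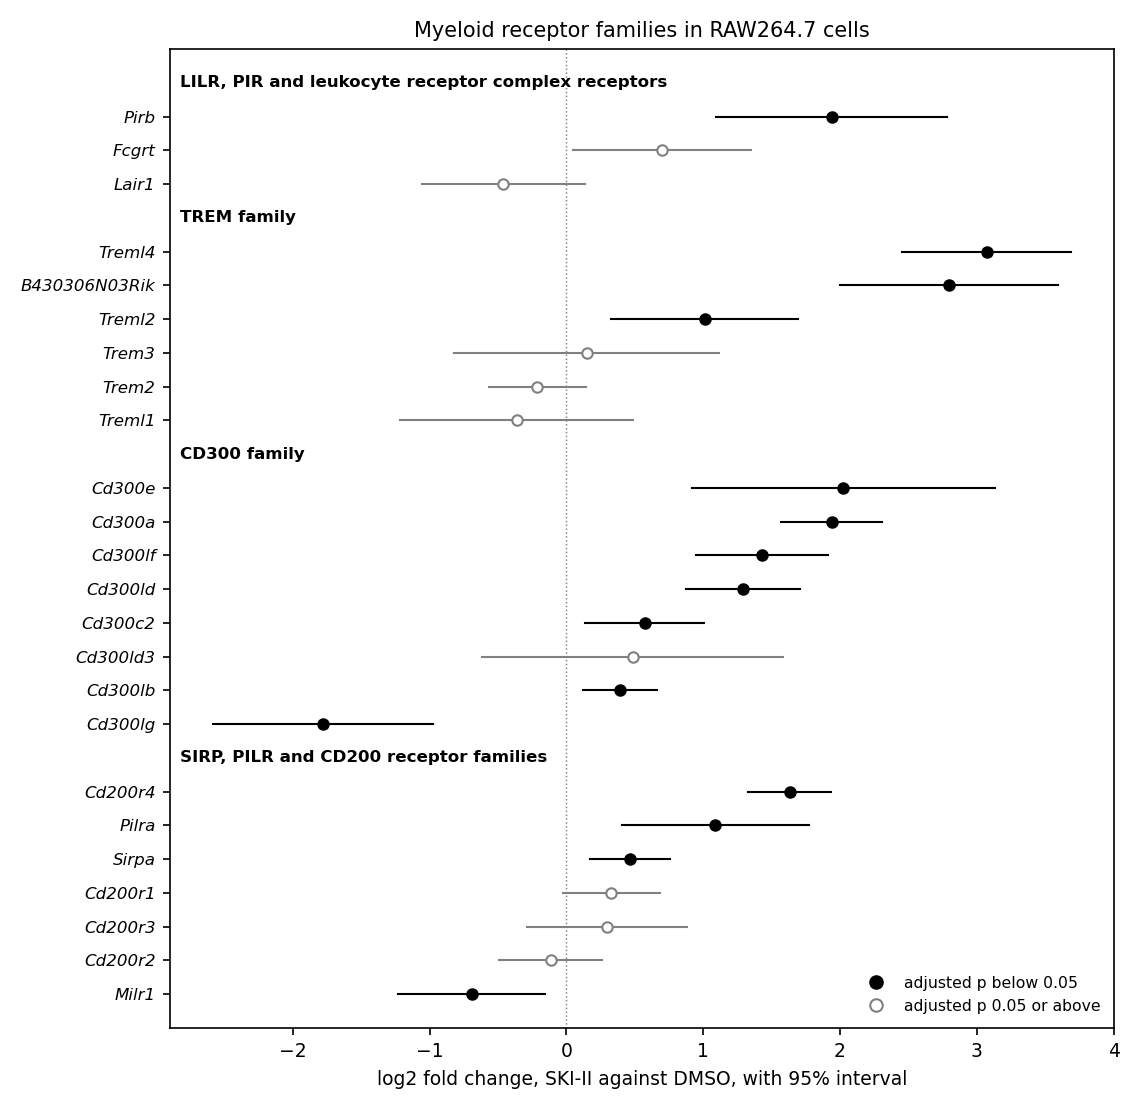
Log2 fold changes of SKI-II against DMSO with 95% intervals for every tested gene of 4 receptor lists, ordered by value within each list. Filled points passed an adjusted p of 0.05. Tarm1 is not drawn because it was chosen by its rise, and Treml4 and B430306N03Rik lie farthest to the right at 3.07 and 2.80.

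Sirpa encodes SIRPα, the inhibitory receptor of the "do not eat me" signal CD47, at chr2:129592835-129632228. It had 7391, 5335 and 7507 counts under vehicle, against 9739, 10218 and 10805 after treatment. After scaling, controls lay from 6741 to 7433 and treated libraries from 8803 to 10897, without overlap. The log2 fold change was 0.46 (SE 0.13, edgeR adjusted p = 0.0198), and the call was lost without DMSO replicate 2 (adjusted p = 0.114), SKI-II replicate 1 (0.0518) or SKI-II replicate 2 (0.0604). The ligand gene Cd47 had a log2 fold change of 0.58 (SE 0.14, edgeR adjusted p = 0.00964), which was lost without DMSO replicate 2 (adjusted p = 0.0600).

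The list of SIRP, PILR and CD200 receptors also held Milr1, which belongs to none of these families. Of its 7 tested genes, 3 were called higher and 1, Milr1, lower (42.9% and 14.3%, against 18.4% and 19.7% of all tested genes), with a median log2 fold change of 0.33. Cd200r4, which encodes an activating partner of DAP12, rose from 269 ± 24.6 to 834 ± 51.9 normalized counts (SD, n = 3), a log2 fold change of 1.63 (SE 0.14, edgeR adjusted p = 2.70e-05). Pilra, an inhibitory receptor gene, had a log2 fold change of 1.09 (edgeR adjusted p = 0.0184) that was lost without DMSO replicate 2 or SKI-II replicate 2 (adjusted p up to 0.0839). Milr1, the allergin gene, was lower by the test at a log2 fold change of −0.69 (edgeR adjusted p = 0.0462) and lost its call in 4 of 6 fits with a library left out, DMSO replicates 1, 2 and 3 and SKI-II replicate 1. Without DMSO replicate 2 or SKI-II replicate 2, Cd200r4 was the 1 gene of these families still called higher among Cd200r4, Pilra and Sirpa.

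The adaptors were the most abundant of the set per length and did not pass the test. Tyrobp, at chr7:30413760-30417585, had 2989, 2274 and 3530 counts under vehicle, against 2280, 3750 and 4421 after treatment. SKI-II replicate 1 was below all controls at 2551 normalized counts and the other treated libraries were above them at 3578 and 3602, so the groups overlapped. Its log2 fold change was 0.07 with a 95% interval of −0.28 to 0.42 (edgeR adjusted p = 0.758). Fcer1g, at chr1:171229572-171234365, had 3353, 2681 and 3412 counts under vehicle, against 2693, 3665 and 4111 after treatment. It lay between 3013 and 3497 normalized counts in all libraries, with a log2 fold change of −0.02 and a 95% interval of −0.28 to 0.23 (edgeR adjusted p = 0.891). These intervals do not include a change as large as that of Pirb or Cd300lf.

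Levels between genes were compared per length, as RPKM, reads per exon length and sequencing depth, on the scaled library sizes. In DMSO the order ran from Tyrobp at 289 RPKM and Fcer1g at 238 through Gm49339 at 139, Sirpa at 90.3 and Trem2 at 69.1 to Cd300lf at 2.56, Pirb at 0.670, Treml2 at 0.539, Trem1 at 0.0568 and Tarm1 at 0.00996. Neighbors in that order overlapped between libraries only for Pirb with Treml2 and for Trem1 with Tarm1. With SKI-II, Tarm1 moved from last to the sixth place at 10.8 ± 3.56 RPKM (SD, n = 3), next to Cd300lf at 6.93 ± 0.409, and these overlapped. Tyrobp and Fcer1g overlapped in SKI-II, as did Fcer1g and Gm49339. Per length, Tarm1 stood at 0.0666, 0.0441 and 0.0302 of the level of its adaptor gene Fcer1g in SKI-II replicates 1 to 3, so the adaptor transcript stayed well above the receptor transcript in each.

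**Figure D3:**
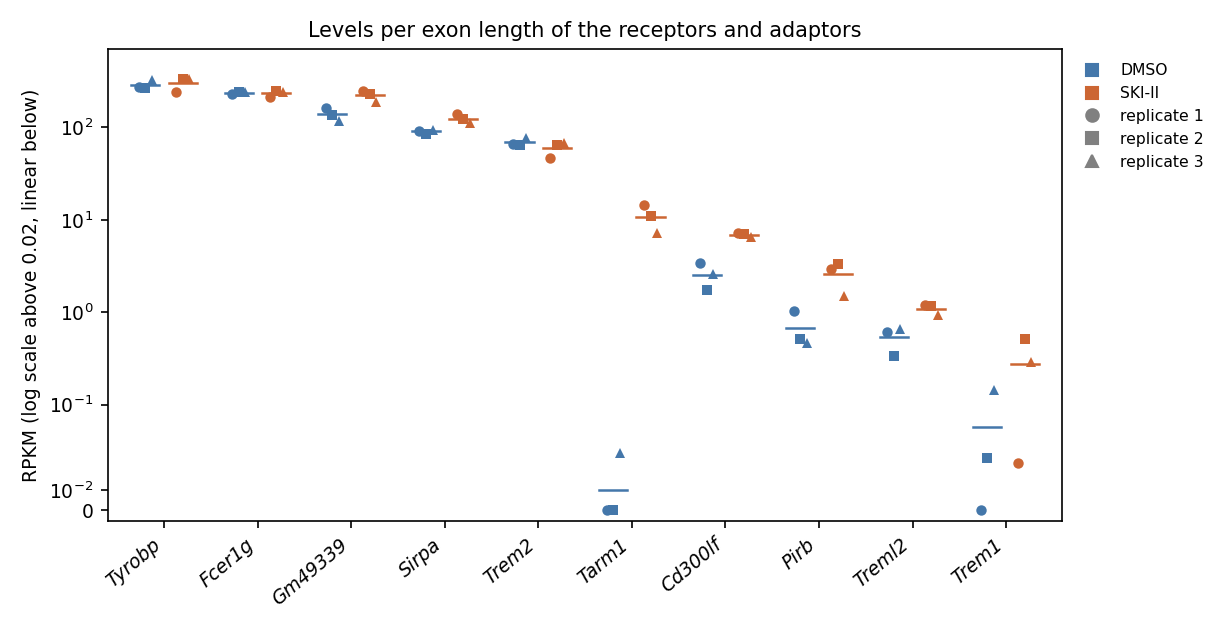
RPKM of each gene in each library, in the order of the DMSO means except that Tarm1 is placed by its SKI-II mean, on an axis that is logarithmic above 0.02 and linear below. Bars give group means. The adaptors Tyrobp and Fcer1g lie above 200 RPKM in both groups, and Tarm1 reaches 7.20 to 14.3 RPKM with SKI-II.

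Trem2 and Tyrobp, receptor and adaptor, varied together between libraries. Trem2 per Tyrobp on the RPKM scale was 0.246, 0.238 and 0.234 in DMSO and 0.197, 0.194 and 0.200 in SKI-II. All treated libraries were below all controls, including replicate 1, in which both genes were low. The log2 difference was −0.28. This ratio was examined after the values were seen, so no test is given.

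The genes whose log2 CPM followed a member most closely over the 6 libraries are given as a description, since treatment, depth and library are shared by all of them. For Tarm1 they were Kcnk13, Slc22a4, Gm13431, Gata3 and P4ha2, with Pearson correlations from 0.998 to 0.999. Their control levels differed widely, Gm13431 having 3, 2 and 3 counts in DMSO and Kcnk13 542, 409 and 595. Pirb was followed by Txndc9, Reep3, Sh3tc1, Rnf149 and D130017N08Rik (0.996 to 0.999). Trem2 was followed by Zfp52, Icosl, Mrfap1, Hprt and Timm23 (0.980 to 0.993). For Tyrobp the closest was a receptor of its own group, Trem3, at 0.983, with 321, 286 and 775 counts under vehicle, against 194, 691 and 881 after treatment, followed by Olfr460, Bcap31, Asf1a and Pdcd6 (0.971 to 0.979).

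Behind the receptors, the kinases and adaptors of ITAM signaling were called about as often as all tested genes. Of 27 tested, 5 were higher and 7 lower (18.5% and 25.9%, against 18.4% and 19.7% of all tested genes), with a median log2 fold change of −0.02. The SRC-family kinase gene Fgr was lower, from 783 ± 54.4 to 347 ± 94.5 normalized counts (SD, n = 3), with a log2 fold change of −1.17 (edgeR adjusted p = 0.00148). Pik3cd, the catalytic subunit gene of leukocyte PI3 kinase, had a log2 fold change of −0.94 (edgeR adjusted p = 0.000324). Blnk, which encodes an adaptor that SYK phosphorylates, was at −0.86 (edgeR adjusted p = 0.00122). Src itself was higher at 0.67 (edgeR adjusted p = 0.0323), with overlapping groups and a call lost in 4 of 6 fits with a library left out. Syk, the kinase that the adaptors recruit, was higher at 0.53 (edgeR adjusted p = 0.0230), and lost its call without replicate 1 of either group or DMSO replicate 2. The count called higher fell to between 1 and 4 with a library left out, and Fyn, at 0.60, was the 1 gene of the 5 called in all 6 such fits.

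Among ITIM phosphatases and negative regulators, 4 were called higher and 3 lower of 15 tested (26.7% and 20%, also near the 18.4% and 19.7% of all tested genes), with a median of −0.16. Ptpn6, which encodes SHP-1, the phosphatase recruited by PIR-B and SIRPα, had 5535, 3209 and 4094 counts under vehicle, against 1390, 2866 and 2563 after treatment. Its groups did not overlap, and the log2 fold change was −1.08 (SE 0.20, edgeR adjusted p = 0.00261). Ptpn11, which encodes SHP-2, had one of −0.16 (edgeR adjusted p = 0.247). Sla, the SRC-like adaptor gene, rose from 540 ± 112 to 1997 ± 317 and Ptpn22 from 2225 ± 10.6 to 4594 ± 443 normalized counts (SD, n = 3), log2 fold changes of 1.88 and 1.05 (edgeR adjusted p = 5.39e-05 and 0.000145). Csk, the kinase gene whose product inhibits SRC-family kinases, was at −0.44 (edgeR adjusted p = 0.0122).

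**Figure D4:**
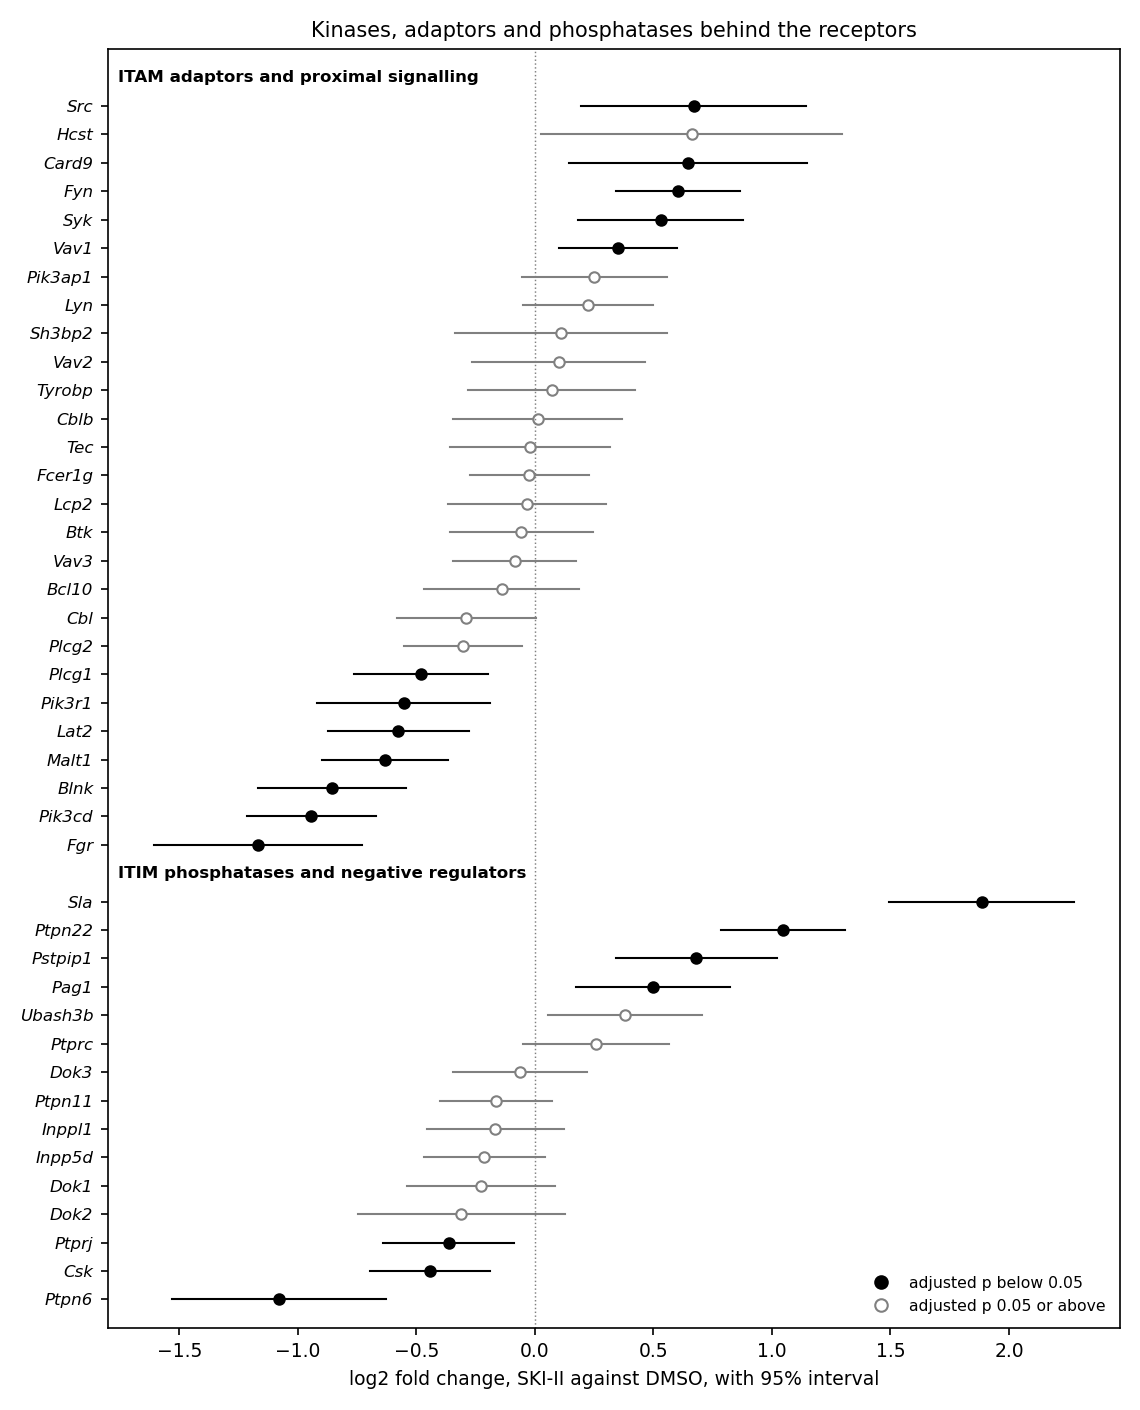
Log2 fold changes of SKI-II against DMSO with 95% intervals for 27 genes of ITAM signaling, Tyrobp and Fcer1g among them, and 15 phosphatases and negative regulators. Filled points passed an adjusted p of 0.05, and both lists hold genes on either side of 0, from Fgr at −1.17 and Ptpn6 at −1.08 to Src at 0.67 and Sla at 1.88.

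The list of ligands of these receptors and enzymes that shed them also held Tgfb1, a cytokine gene of neither kind. Of its 10 tested genes, 1 was called higher (Cd47, above) and 5, Tgfb1 among them, lower (10% and 50%, against 18.4% and 19.7% of all tested genes), with a median log2 fold change of −0.82. Angptl2, a secreted ligand of PIR-B, had 1799, 1278 and 1598 counts under vehicle, against 237, 370 and 253 after treatment, a log2 fold change of −2.59 (SE 0.18, edgeR adjusted p = 1.50e-05). Hmgb1, a nuclear protein gene whose released product has been linked to TREM1, was at −1.28 (edgeR adjusted p = 0.000355), and Clu, which encodes the TREM2 ligand clusterin, at −1.16 (edgeR adjusted p = 0.000845).

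Genes linked to TREM2 in lipid-laden macrophages were examined beside Trem2. Of 24 tested, Trem2 and Tyrobp among them, 4 were called higher and 12 lower (16.7% and 50%, against 18.4% and 19.7% of all tested genes), with a median log2 fold change of −0.76, while Trem2 itself did not pass. Fabp4, a fatty acid-binding protein gene, went from 255 ± 42.1 to 16.3 ± 13.0 normalized counts (SD, n = 3), a log2 fold change of −4.02 (edgeR adjusted p = 9.57e-05), and the receptor kinase gene Axl had one of −3.58 (edgeR adjusted p = 5.79e-05). Csf1, the macrophage growth factor gene, rose by 2.44 on the log2 scale (edgeR adjusted p = 7.78e-05). Lgals3, the galectin-3 gene, rose from 10585 ± 1408 to 24264 ± 3067 normalized counts (SD, n = 3, edgeR adjusted p = 0.000411).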

How the data were processed

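Total RNA from RAW264.7 cells was enriched with oligo(dT) beads and made into NEBNext Ultra II libraries. The table used here holds raw read counts per Ensembl gene as the authors deposited them, not normalized; normalized values were not used here. Per the submitters' processing notes the tools were Trimmomatic 0.36, STAR 2.5.2b, featureCounts of Subread 1.5.2 and DESeq2; the build, annotation release, strand setting and treatment of reads that map to several genes were not given in the sources used here. Genes that share sequence or overlap on opposite strands may therefore share reads.

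Groups and replicate numbers came from the labels, and the time from the study's methods. GENCODE M21 (GRCm38) named 48970 of 49315 identifiers, and identifiers with no place in it held 0.0391% of the counts. Counts were tested with edgeR 4.0.16 (quasi-likelihood F test, TMM scaling, filterByExpr keeping at least 10 counts and 15 in total, prior count 0.125, Benjamini-Hochberg adjustment over 12274 genes). The call was an adjusted p below 0.05. Normalized counts are counts on the mean scaled library size of 16042438. Ratios used exact 95% intervals, and 3 counts for a count of 0; PCR reads without molecular identifiers are not independent molecules, so both cover counting error only. The common biological coefficient of variation was 17.46%. Alternatives were DESeq2 1.42.0, limma-voom 3.58.1, other scaling and filters, a replicate block and libraries left out. The scripts were tested on simulated data.

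Tarm1 entered no count of calls and no median. The genes and the lists were chosen with earlier results of these data known. Of the genes on these lists, 2 are not reported here and were left out of the counts. In each of 10 gene lists and 6 marker lists the text names the 3 called genes with the largest log2 fold change, in either direction, and the next largest called in the direction opposite to the first, where the mean normalized count was 10 or more. Cd68, Adgre1, Itgam, Fcgrt, Lair1, Trem3, Treml1, S100a8, Csf3r, Syk, Fyn, Ptpn11, Cd300c, Cd300c2, Cd300lb and Tgfb1 were added for their role or place beside the members or in a list. Likeness was ranked by Pearson correlation of log2 CPM with a prior count of 2.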

Additional observations from a re-analysis of the deposited data

How the results depend on the processing

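The counts of genes called higher (2255) and lower (2413) stayed within 1.5 times under all alternatives run, as did those beyond a log2 fold change of 1. The 4 genes of the set called higher beside Tarm1 numbered 2 to 5 with 1 library left out, 2 without replicate 2 of either group or replicate 1 of SKI-II, when Treml2 and Sirpa were both lost, and 5 without DMSO replicate 3, when Trem1 passed. The 3 of them beyond a log2 fold change of 1 numbered 2 to 4. The first number was 5 with no filter on low counts, again with Trem1, and 4 under DESeq2, limma-voom, the other scalings, the stricter filter and the replicate block. It was 4 without replicate 3 of both groups and 5 with Gm49339 counted for Lilrb4a, both chosen after seeing the data. Near 0, the sign of Tyrobp turned without replicate 2 or 3 of SKI-II; with 1 library left out its log2 fold change ran from −0.014 to 0.21 and that of Fcer1g, which turned without SKI-II replicate 1, from −0.068 to 0.029, none of them called. Dividing by the longest transcript in place of the exon union raised the RPKM of Tarm1 in SKI-II from 10.8 to 14.6 and of Fcer1g in DMSO from 238 to 305, and moved 6 other levels by more than their SD. Same-numbered libraries deviated together with correlations of 0.246, 0.00994 and 0.458, and differently numbered ones with −0.462 to 0.296. Of the 6 libraries, 3 correlated best with their own number. The labels do not state pairs and the main test did not use the numbers, so any spread shared by a number was left in it. With the replicate number as a block, 2765 genes were called higher and 2819 lower, and no call of the set changed. Counts of the gene lists rose by 1 or 2 calls: LILR, PIR and related receptors from 1 to 2 higher (Fcgrt, adjusted p = 0.0107), SIRP, PILR and CD200 receptors from 3 to 4 higher, C-type lectins from 4 to 5 higher and 1 to 2 lower, ITAM signaling from 7 to 8 lower, ITIM regulators from 4 to 5 higher, ligands from 5 to 6 lower, and Trem2-linked genes from 4 to 6 higher and 12 to 13 lower. The median log2 fold change of all tested genes lay between −0.0137 and 0.0189 in every alternative. Depth limits Tarm1 in DMSO, where 1 count sets the ratio, and Trem1.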

Other observations

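Other receptor groups of the same kind were called in different directions. Of 4 tested Siglec genes, whose products bind sialic acids, 3 were called lower, against 19.7% of all tested genes, and none higher (0 also at an unadjusted p under 0.05, and with DESeq2 or limma-voom), with a median log2 fold change of −1.47 against 0.0038 over all tested genes. Siglec1, the sialoadhesin gene, was lower, with a log2 fold change of −1.60 (edgeR adjusted p = 0.00191), and Cd33, an inhibitory Siglec gene, had one of −1.36 (edgeR adjusted p = 0.00294). Siglec15, which encodes a partner of DAP12 in osteoclasts, was at −1.59 (edgeR adjusted p = 0.0194), and the call was lost without DMSO replicate 2 (adjusted p = 0.0505). Of 9 tested C-type lectin receptors that use ITAM or ITIM signals, 4 were called higher and 1 lower (44.4% and 11.1%, against 18.4% and 19.7% of all tested genes), with a median of 0.75. Clec4a3 rose from 120 ± 18.9 to 559 ± 133 normalized counts (log2 fold change 2.21, edgeR adjusted p = 6.11e-05). Clec4n, which encodes Dectin-2, had 10, 13 and 10 counts under vehicle, against 17, 96 and 68 after treatment (log2 fold change 2.22, edgeR adjusted p = 0.0107), and missed the threshold without SKI-II replicate 2 (adjusted p = 0.0516). Clec12a, an inhibitory receptor gene, was the 1 called lower, at −1.41 (edgeR adjusted p = 0.00486).

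Markers of the myeloid line itself were also called in both directions. Of 10 macrophage markers, 2 were called higher and 4 lower (20% and 40%, against 18.4% and 19.7% of all tested genes). Fcgr1, the high-affinity IgG receptor gene whose product uses the Fcer1g adaptor, rose from 909 ± 152 to 4106 ± 592 normalized counts (SD, n = 3), a log2 fold change of 2.17 (edgeR adjusted p = 1.56e-05), and Cd14 had one of 1.41 (edgeR adjusted p = 0.000273). Mrc1, the mannose receptor gene, was at −1.61 (edgeR adjusted p = 0.0209, lost in 4 of 6 fits with a library left out), and Lyz2, the lysozyme gene, at −1.26 (edgeR adjusted p = 0.0172). Of 5 tested osteoclast genes, a fate in which Tyrobp and Fcer1g are used, 4 were called lower, against 19.7% of all tested genes, and none higher (0 likewise). They included Atp6v0d2 at −1.66 (edgeR adjusted p = 0.000234) and Acp5 at −0.81 (edgeR adjusted p = 0.0112), and Ctsk at −1.46 (edgeR adjusted p = 0.0210) lost its call in 4 of 6 fits with a library left out. Of 2 tested neutrophil markers, S100a8 and Csf3r, neither was called, and Zbtb46, the 1 tested dendritic marker, was at −0.84 (edgeR adjusted p = 0.0451) and lost its call in 5 of 6 fits with a library left out.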
